A study of Mus musculus with 6 samples.

Results

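The heat shock and cytosolic chaperone genes described here are 34 genes taken from a list of symbols that share a known function. Of the 55471 gene identifiers in the count tables, all 34 members were found, and all 34 were among the 12546 genes that passed the filter on low counts. They comprise 8 genes of the HSP70 and HSP110 family, 7 of the HSP90 machinery and its co-chaperones, 7 J-domain and BAG partners of HSP70, 5 subunits of the TRiC chaperonin, 4 mitochondrial chaperones, 1 small heat shock protein and 2 heat shock factors. Their messages were measured by bulk RNA sequencing in OT-I CD8 T cells, which carry a T cell receptor against an ovalbumin peptide, recovered from KPC_OVA tumours, a mouse pancreatic cancer line engineered to make ovalbumin and grown in the pancreas.

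The 6 libraries fell into 3 with a guide against Elovl1 (sgElovl1), the gene of a fatty acid elongase, and 3 in which the guide was non-targeting (sgNT). The donors of both groups were OT-I mice bearing a constitutive Cas9 knocked into Rosa26, so the sgNT cells had Cas9, a lentiviral vector and its CD90.1 reporter as well. The recipients in both groups received anti-PD-1 from the day after transfer, and the T cells were sorted on CD90.1 at day 7 from enzymatically digested tumours. sgElovl1 replicates 1 and 2 each hold RNA of 2 tumours, whereas the other 4 libraries came from 1 tumour each, so pooling cannot be told apart from part of the group difference. The labels do not give the age or sex of the mice. Total counts lay between 21980273 and 26165380 per library.

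Elovl1, the targeted gene, had 81.5, 76.6 and 95.4 CPM (counts per 1e+06, scaled between libraries by the TMM method) in the sgElovl1 libraries and 283, 280 and 255 CPM in the sgNT libraries. It fell by 1.69 on the log2 scale (adjusted p = 8.7e-05, edgeR's quasi-likelihood test, Benjamini-Hochberg adjustment over all tested genes). The summed level of 8 CD8 T cell markers was between 10780 and 12360 CPM in sgElovl1 and between 14100 and 14580 CPM in sgNT. The ratio was 0.79, and Trac, Cd8a and Cd3g were the most abundant. Of these 8 markers, Trac, Cd8a and Cd8b1 were called lower in sgElovl1 and Cd3e higher. The part of this difference in the member values was not tested. Messages of other cells were present. The 9 tumour epithelium markers, led by Krt8, Krt19 and Krt18, summed to 1068 CPM in sgNT replicate 3 and 342 CPM in sgElovl1 replicate 3 but to between 32.8 and 53.4 CPM in the other 4 libraries. The 13 macrophage and monocyte markers summed to between 1173 and 1557 CPM in sgElovl1 and between 638 and 1260 CPM in sgNT. Without Ly6c2, which CD8 T cells also express, they summed to between 106 and 331 CPM against between 45.4 and 74.7 CPM, led by Lyz2 and Cd68, with Adgre1 at 0 in the 3 sgNT libraries. Of the 13 markers, 12 passed the filter. Adgre1, C1qa and Fcgr1 were called higher in sgElovl1, or 25.0% of the 12, against 8.64% of all tested genes. In sgNT, Adgre1 and Fcgr1 did not exceed 0.166 CPM and C1qa 0.704 CPM. Adgre1 and Fcgr1 passed the filter only through the sgElovl1 libraries, so their calls were largely set in advance. The part of macrophage message in the member values was not tested. Neutrophil markers summed to 1.12, 1.38 and 3.34 CPM in sgElovl1 and to 0.383, 0 and 0.0828 CPM in sgNT, with no overlap. Fibroblast markers did not exceed a sum of 0.510 CPM in any library, B cell markers 9.07 CPM and acinar markers 7.09 CPM.

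Chaperones bind unfolded or partly folded proteins and keep them from aggregating. HSP70 proteins do so in cycles of ATP hydrolysis that J-domain proteins start and that BAG proteins and the HSP110 relatives end by nucleotide exchange. HSP90, loaded through Stip1 and Cdc37, completes the folding of kinases and steroid receptors, and the ring-shaped TRiC complex folds actin and tubulin. The transcription factor HSF1 induces many of these genes under proteotoxic stress by binding heat shock elements, which are inverted repeats of the 3-base units GAA and TTC.

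Promoters are shown for the inducible copies Hspa1a and Hspa1b, of which Hspa1b rose. They are also shown for 3 of the 5 members with a window that held the longer form of the heat shock element. Sequences are from RefSeq on GRCm38.p6, read 5′ to 3′ on the strand of the gene, from 250 bases before to 50 bases after a start site. Capitals mark each match to the 2-unit element, spelled GAANNTTC or TTCNNGAA. Each spelling reads the same on both strands, and matches may overlap.
Hspa1a, chr17:34972107-34972406, minus strand: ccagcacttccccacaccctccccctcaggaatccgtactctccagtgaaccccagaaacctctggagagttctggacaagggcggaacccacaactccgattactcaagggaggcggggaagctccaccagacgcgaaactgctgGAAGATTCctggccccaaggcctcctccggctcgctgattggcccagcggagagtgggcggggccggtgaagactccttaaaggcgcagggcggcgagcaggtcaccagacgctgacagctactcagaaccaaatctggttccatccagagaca
Hspa1b, chr17:34959189-34959488, minus strand: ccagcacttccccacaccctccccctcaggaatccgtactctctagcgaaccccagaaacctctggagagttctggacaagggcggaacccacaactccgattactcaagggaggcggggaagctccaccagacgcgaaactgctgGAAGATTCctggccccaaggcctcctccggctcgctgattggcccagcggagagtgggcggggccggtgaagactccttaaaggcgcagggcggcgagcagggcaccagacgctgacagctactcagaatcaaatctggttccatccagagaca
Hspe1, chr1:55087898-55088197, plus strand: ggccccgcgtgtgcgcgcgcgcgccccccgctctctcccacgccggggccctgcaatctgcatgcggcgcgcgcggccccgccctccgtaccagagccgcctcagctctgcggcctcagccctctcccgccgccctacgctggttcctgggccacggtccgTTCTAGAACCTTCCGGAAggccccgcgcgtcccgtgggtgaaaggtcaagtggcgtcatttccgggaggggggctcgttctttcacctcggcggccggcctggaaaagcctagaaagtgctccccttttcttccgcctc
Chordc1, chr9:18292017-18292316, plus strand: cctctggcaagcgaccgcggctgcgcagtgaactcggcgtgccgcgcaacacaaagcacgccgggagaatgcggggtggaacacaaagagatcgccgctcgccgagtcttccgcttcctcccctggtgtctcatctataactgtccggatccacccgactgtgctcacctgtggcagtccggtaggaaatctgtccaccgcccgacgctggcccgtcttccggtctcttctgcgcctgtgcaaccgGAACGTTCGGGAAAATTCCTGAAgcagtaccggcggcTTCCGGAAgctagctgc
Hsph1, chr5:149636287-149636586, minus strand: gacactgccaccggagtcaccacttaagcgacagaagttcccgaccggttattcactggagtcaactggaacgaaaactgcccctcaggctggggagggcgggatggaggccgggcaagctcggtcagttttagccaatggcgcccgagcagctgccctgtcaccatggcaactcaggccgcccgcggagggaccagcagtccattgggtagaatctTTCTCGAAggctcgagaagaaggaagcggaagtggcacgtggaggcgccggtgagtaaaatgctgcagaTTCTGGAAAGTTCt

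Windows were given for 27 of the 34 members, 36 windows in all, since some genes have more than 1 start site. A gene was counted if any of its windows held a match. By window, 47.2% of the members' windows held a 2-unit element, against 15.1% of all windows. By gene, a 2-unit element was in a window of 15 of these 27 genes (55.6%). The shares were 17.0% of the 27025 genes with a window and 14.0% of the 9296 tested genes with one. The longer element, in which a further unit follows in the opposite sense after the same spacing, was in 5 members (18.5%), namely Hspd1, Hspe1, Chordc1, Hsph1 and Dnajb6, against 0.662% of all genes with a window. Chordc1 held 5 overlapping or separate 2-unit matches, the first at -4 from the start site. The Hspa1a and Hspa1b windows were identical at 296 of 300 positions, and both hold their single match at -104. Hspd1 and Hspe1 are transcribed away from each other. A window of Hspd1 shared 285 bases with that of Hspe1 and hence the same run of elements, whereas another Hspd1 window held no element. A match describes letters in the window and not a bound site. The median log2 fold change was -0.13 over the 15 members with a 2-unit match and -0.29 over the 12 without one.

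Of these 34 genes, 2 rose in sgElovl1 cells (Hspa1b and Hsf2), 3 fell (Bag1, Cct2 and Cct3) and 29 did not pass the test at an adjusted p of 0.05. Over all tested genes, 8.64% were called higher and 5.13% lower, 13.8% in either direction. The members called higher were 5.88% of the 34 and those called lower 8.82%, so neither share stands far from that of all genes. The median member log2 fold change was -0.15, against -0.004 over all tested genes, and 24 of 34 members (70.6%) had a negative value, against 50.4% of all genes. DESeq2 called 5 further members lower, namely Hsp90ab1, Dnaja2, Cdc37, Cct5 and Tcp1, where it called 8.06% of all genes it tested lower and 9.64% higher. In 5 members every sgElovl1 library was above every sgNT library, and in 12 members every one was below, in CPM. Among all tested genes, the groups did not overlap in 19.4% with sgElovl1 higher and in 17.7% with sgElovl1 lower. In TPM (the share of transcripts, a level per transcript length), 6 members lay wholly above and 6 wholly below, against 20.5% and 11.4% of all tested genes. In bulk RNA, a smaller share of cells with a message and less of it per cell cannot be told apart.

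**Figure D1:**
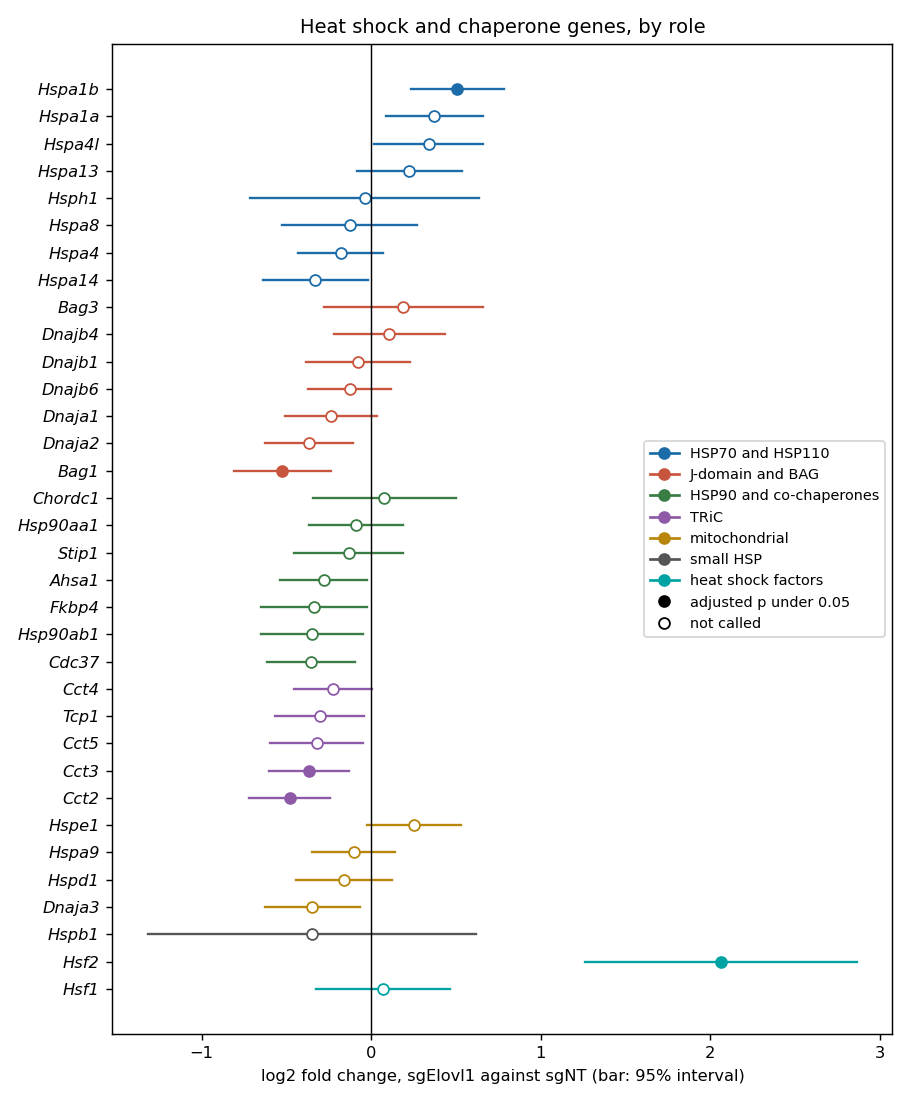
Log2 fold change of each of the 34 members, sgElovl1 against sgNT (x axis), with its 95% interval, grouped and coloured by role, with filled points for an adjusted p under 0.05. The 5 filled points are Hspa1b and Hsf2 to the right of 0 and Bag1, Cct2 and Cct3 to the left, and the 5 TRiC subunits all lie to the left.

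The third libraries stood apart for many members. sgNT replicate 3 was the lowest sgNT library for 20 of the 34 members (58.8%), against 37.5% of all tested genes. It held 46.6% of the mean of the other sgNT libraries for Hsph1, 59.6% for Hsf1, 61.2% for Chordc1 and 63.1% for Hspa8, but 263% for Hspb1 and 154% for Bag3. The second principal component of all tested genes, with 29.1% of the variance, parted replicate 3 of both groups from the rest, and these are the libraries with the most tumour epithelium message. The part of that message in the member values was not tested. Without replicate 3 of both groups, which left 2 against 2, edgeR called Hspa1b and Hsf2 higher again and 17 of the 34 members lower, where 16.1% of all tested genes were called lower and 15.4% higher in that fit. The median member log2 fold change was then -0.27, against 0.01 over all tested genes. In that fit both sgElovl1 libraries pooled 2 tumours and both sgNT libraries held 1, so guide and pooling cannot be told apart. The same limit holds for every value given below without replicate 3 of both groups.

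**Figure D2:**
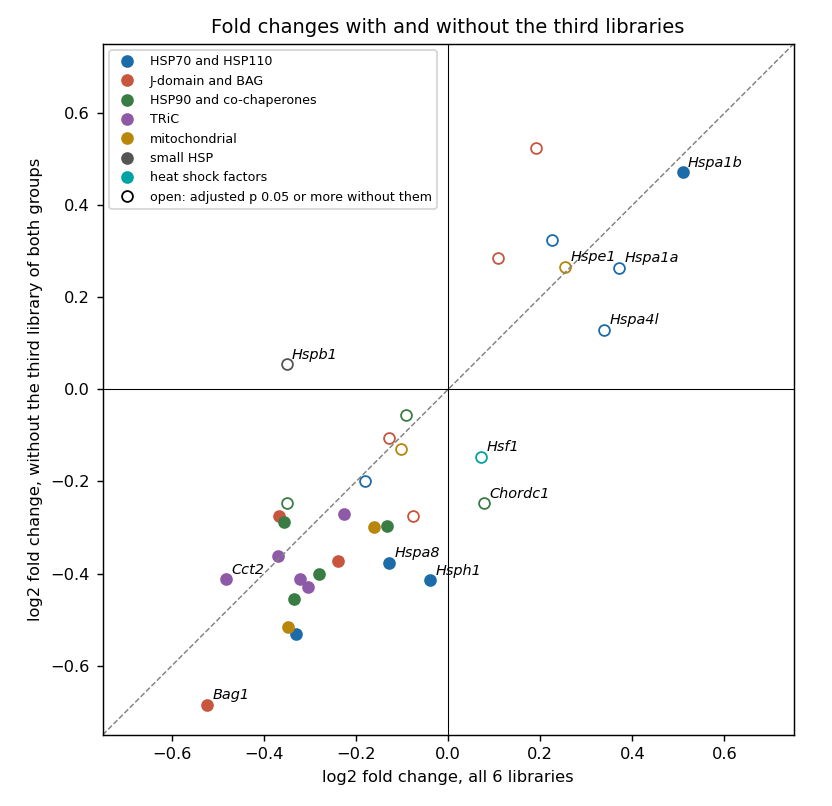
Log2 fold change of 33 members from all 6 libraries (x axis) against that without replicate 3 of both groups (y axis), coloured by role, with filled points for an adjusted p under 0.05 in the smaller fit. Hsf2, at 2.06 and 2.10, lies outside the axes. Hsph1 and Hspa8 lie well below the dashed line of equal values, while Hspa1b stays near it.

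Hspa1a and Hspa1b encode the stress-inducible cytosolic HSP70 and are neighbours on chromosome 17 (chr17:34969190-34972156 and chr17:34956436-34959238, both on the minus strand, GENCODE M21 on GRCm38). Hspa1b had 120, 137 and 115 CPM in sgElovl1 and 97.5, 88.1 and 76.5 CPM in sgNT. The lowest sgElovl1 library was above the highest sgNT library. The log2 fold change was 0.51 ± 0.13 (SE, n = 3 per group), a 1.42-fold difference (adjusted p = 0.0246, edgeR's quasi-likelihood test). Hspa1a had 78.1, 99.2 and 93.4 CPM in sgElovl1 against 74.2, 73.3 and 61.6 CPM in sgNT, again with no overlap, but the difference of 0.37 (log2) did not pass (adjusted p = 0.0762, edgeR).

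The transcripts of these copies were 98.9% identical over 2214 aligned bases, with 1 identical run of 638 bases, so the division of reads between them is uncertain. With their counts added and tested as 1 gene, the log2 fold change was 0.45 (adjusted p = 0.0351, edgeR). Hspa1b no longer passed in TPM, or when sgElovl1 replicate 1 or 2, or sgNT replicate 2 or 3, was left out (adjusted p up to 0.143, edgeR), and its log2 fold change stayed between 0.43 and 0.61 in the fits that left out a library.

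Hspa8, the constitutive cytosolic HSC70, was the most abundant member in every library and made up between 25.0% and 33.2% of the members' summed TPM. It had 2784, 2915 and 3190 CPM in sgElovl1 and 3678, 3706 and 2330 CPM in sgNT. The sgElovl1 libraries thus lay between sgNT replicate 3 and the other sgNT libraries. The log2 fold change was -0.13 ± 0.18 (adjusted p = 0.663, edgeR), and -0.38 with replicate 3 of both groups left out (adjusted p = 0.00626, edgeR). Hsph1, the HSP110 nucleotide exchange factor, showed the same arrangement, with 148, 187 and 199 CPM in sgElovl1 and 227, 218 and 104 CPM in sgNT. Its interval, from -0.72 to 0.64 on the log2 scale, spans a change in either direction.

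The other members of the family differed by less than the test could call. Hspa4, a further HSP110 relative, had 179 ± 3.76 CPM in sgElovl1 and 203 ± 23.6 CPM in sgNT (mean ± SD, n = 3), and its testis-enriched relative Hspa4l 62.3 ± 8.71 against 49.3 ± 7.72 CPM. Hspa13, which lies in microsomes, had 19.2 ± 2.27 against 16.4 ± 0.913 CPM with no overlap. Hspa14, which acts at the ribosome, differed by -0.33 on the log2 scale (adjusted p = 0.135, edgeR), and it was called lower without replicate 3 of both groups (-0.53, adjusted p = 0.00543, edgeR). Hspa14 shares its strand with the readthrough gene Gm45902, which held a mean of 116 counts against 4823 for Hspa14. Summed over the 8 genes, the family had 3538, 3768 and 4063 CPM in sgElovl1 and 4540, 4637 and 3017 CPM in sgNT, a ratio of 0.932, and the groups overlapped.

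**Figure D3:**
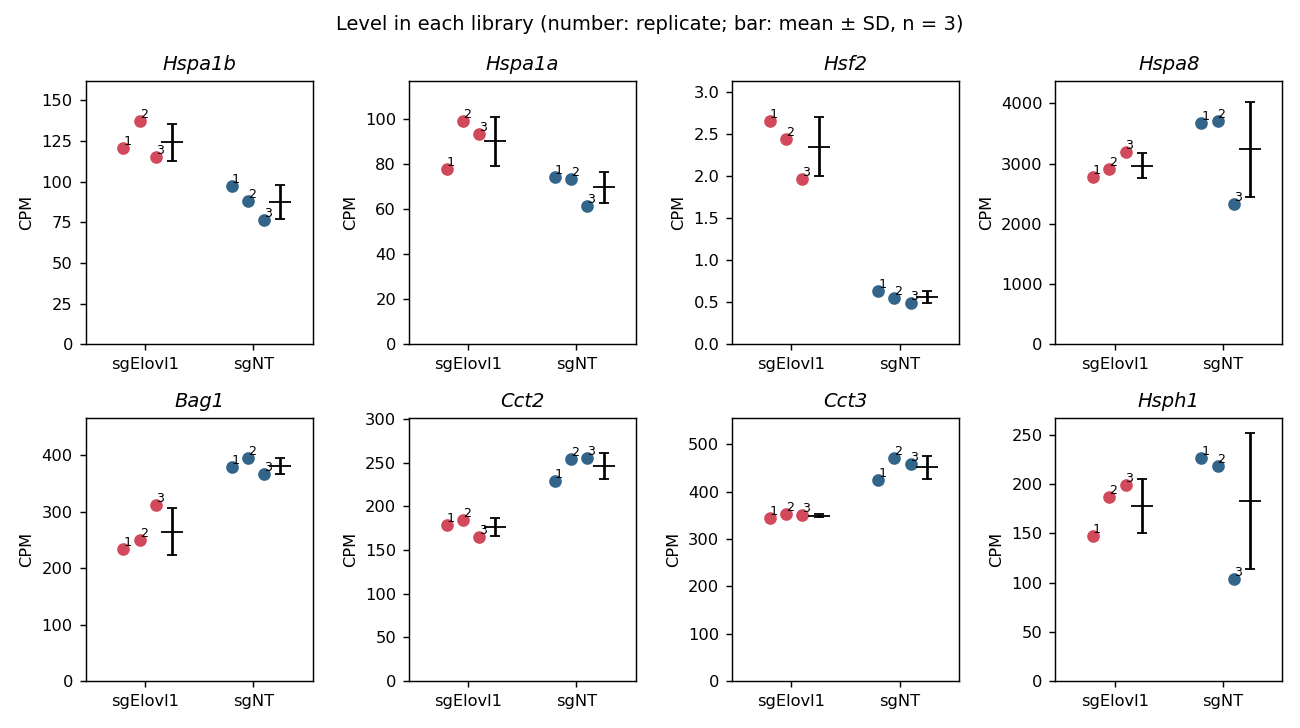
Level in CPM (y axis, from 0) of 8 members in each sgElovl1 and sgNT library, with the replicate number beside each point and the mean ± SD (n = 3) as a bar. The groups part without overlap for Hspa1b, Hspa1a, Hsf2, Bag1, Cct2 and Cct3, whereas the third sgNT library of Hspa8 and Hsph1 lies below every sgElovl1 library.

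Among the J-domain and BAG partners, Bag1 (chr4:40936398-40948294, minus strand), a nucleotide exchange factor of HSP70 that also binds BCL2, fell in sgElovl1 cells. It had 233, 250 and 312 CPM in sgElovl1 and 380, 396 and 367 CPM in sgNT, with no overlap. The log2 fold change was -0.52 ± 0.13 (SE), or 0.696 of the sgNT level (adjusted p = 0.0246, edgeR's quasi-likelihood test). Without replicate 3 of both groups it was -0.69 (adjusted p = 0.000601, edgeR), and it no longer passed when sgElovl1 replicate 1 or 2, or the same numbers of sgNT, were left out (adjusted p up to 0.138, edgeR), in TPM or with an offset for gene length. Bag3, the stress-inducible BAG protein that steers HSP70 clients to autophagy, had 11.4, 10.6 and 8.78 CPM in sgElovl1 and 7.84, 7.41 and 11.7 CPM in sgNT. The third sgNT library of Bag3 was the highest of the 6, and its log2 fold change was 0.19 (adjusted p = 0.573, edgeR).

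Dnaja1 and Dnaja2 are the main cytosolic class A J-domain proteins. Dnaja2 had 196, 190 and 155 CPM in sgElovl1 and 223, 243 and 231 CPM in sgNT with no overlap, at a log2 fold change of -0.37 (adjusted p = 0.062, edgeR). Dnaja1 had 692 ± 55.1 against 817 ± 66.3 CPM, a log2 fold change of -0.24. Dnaja1 overlaps Smu1 on the opposite strand, and whether the counting used strand is not given in the sources used here. Dnajb1, the heat-inducible HSP40, had 194, 208 and 273 CPM in sgElovl1 and 257, 228 and 227 CPM in sgNT, where sgElovl1 replicate 3 was the highest of the 6 libraries. Dnajb4 and Dnajb6, the latter a suppressor of aggregation, had log2 fold changes of 0.11 and -0.13. Summed over these 7 genes, the levels were 1629, 1628 and 1847 CPM in sgElovl1 and 2060, 2058 and 1965 CPM in sgNT, a ratio of 0.839 with no overlap.

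None of the 7 genes of the HSP90 machinery passed edgeR's test, although DESeq2 called Hsp90ab1 and Cdc37 lower and limma on TPM called Cdc37 lower, and 6 of the 7 log2 fold changes were negative. Hsp90ab1, the constitutive HSP90, was second to Hspa8 in TPM in both groups. It had 1343, 1350 and 1048 CPM in sgElovl1 and 1527, 1661 and 1583 CPM in sgNT, with no overlap, and a log2 fold change of -0.35 (adjusted p = 0.105, edgeR). Cdc37, the co-chaperone that brings kinases to HSP90, had 280, 290 and 240 CPM against 327, 367 and 342 CPM, likewise with no overlap, and -0.36 (adjusted p = 0.0649, edgeR). Ahsa1, which stimulates the HSP90 ATPase, had 177, 200 and 204 CPM against 244, 253 and 209 CPM, and -0.28 (adjusted p = 0.127, edgeR).

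The other HSP90 genes overlapped between the groups in CPM, although Hsp90aa1 lay wholly higher in sgElovl1 in TPM. The inducible Hsp90aa1 had 450 ± 48.3 CPM in sgElovl1 and 480 ± 45.6 CPM in sgNT. Stip1, which joins HSP70 to HSP90, had 311 ± 17.8 against 340 ± 66.7 CPM, and Fkbp4, an immunophilin of steroid receptor complexes, 196 ± 15.1 against 247 ± 46.5 CPM. Chordc1 had 125, 134 and 164 CPM in sgElovl1 and 153, 154 and 93.8 CPM in sgNT, the third sgNT library again lying below the others. Ahsa1, Cdc37, Fkbp4 and Stip1 were called lower without replicate 3 of both groups. The summed level was 2885, 2977 and 2561 CPM in sgElovl1 and 3312, 3659 and 3142 CPM in sgNT, a ratio of 0.833 with no overlap. In TPM the same sums overlapped, at a ratio of 0.901.

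The TRiC chaperonin gave the most even pattern. For each of its 5 listed subunits, the highest sgElovl1 library was under the lowest sgNT library in CPM, where 17.7% of all tested genes were so arranged. By the test 2 of the 5 fell (40.0%, against 5.13% of all tested genes). In TPM, Cct2, Cct3 and Cct5 parted in this way, whereas Cct4 and Tcp1 overlapped. Cct2 (chr10:117051001-117063814, minus strand) had 179, 185 and 165 CPM in sgElovl1 and 229, 254 and 256 CPM in sgNT. Its log2 fold change was -0.48 ± 0.11 (SE; adjusted p = 0.0170, edgeR's quasi-likelihood test). Cct3 (chr3:88297116-88321767, plus strand) had 345, 353 and 350 CPM in sgElovl1 and 424, 471 and 458 CPM in sgNT. Its log2 fold change was -0.37 ± 0.11 (SE; adjusted p = 0.0443, edgeR), and the call was lost with the replicate number as a block (adjusted p = 0.063, edgeR). Cct3 was also lost in most fits that left out 1 library, and Cct2 in TPM and without sgElovl1 replicate 1 or 2 or sgNT replicate 2.

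Cct4, Cct5 and Tcp1 had log2 fold changes of -0.23, -0.32 and -0.30 and did not pass (adjusted p = 0.161, 0.104 and 0.107, edgeR). Tcp1 overlaps Mrpl18 on the opposite strand. The 5 subunits summed to 1553, 1625 and 1663 CPM in sgElovl1 and 1958, 2186 and 1956 CPM in sgNT, a ratio of 0.794. Without replicate 3 of both groups, all 5 were called lower, at log2 fold changes between -0.43 and -0.27. With an offset for gene length, however, none of the 34 members was called lower, and Cct2 had an adjusted p of 0.064 (edgeR). Genes of 1000 to 2000 bases, a length class that holds 13 members, had a median log2 fold change of -0.17 over all tested genes and -0.32 over the members. In the class of 2000 to 3000 bases, with 14 members, the medians were -0.02 and -0.003, and in that of 3000 to 4000 bases, with 5 members, 0.21 and -0.04.

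**Figure D4:**
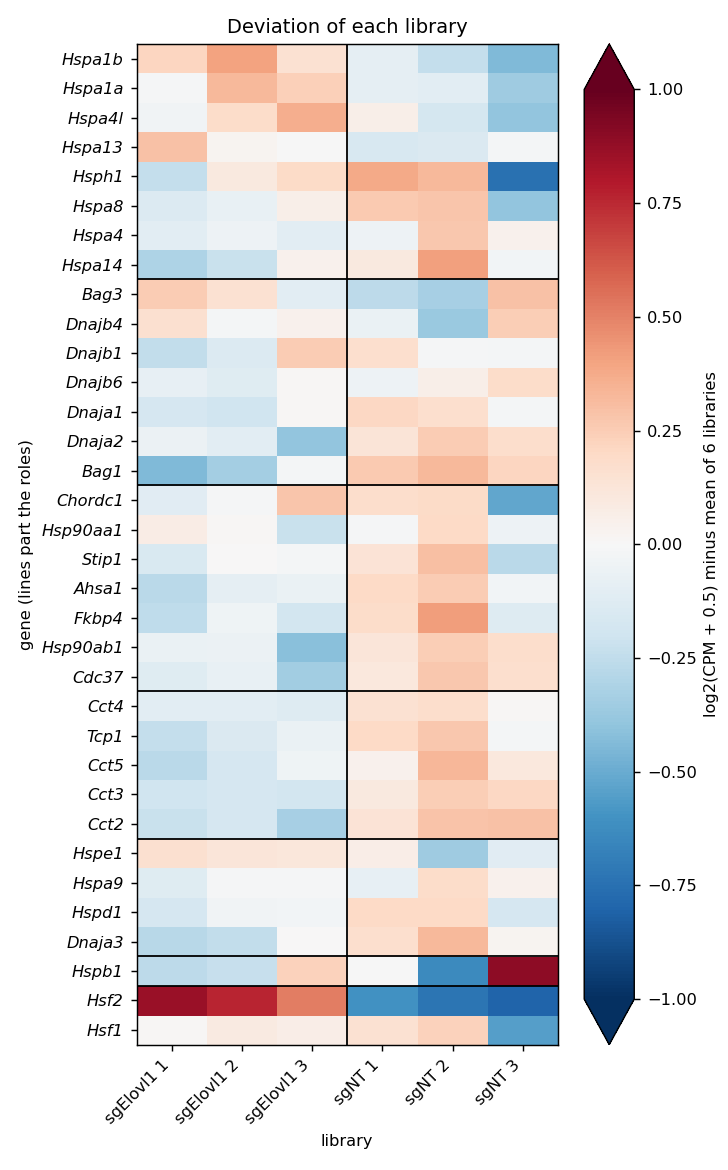
Deviation of log2(CPM + 0.5) from its mean over the 6 libraries, for each member (rows, parted by role) and library (columns), red above and blue below, with the scale cut at 1 in each direction. The TRiC rows are blue in the sgElovl1 columns and red in the sgNT columns, except that Tcp1 in sgNT replicate 3 lies just below its row mean, and the last column departs from its group for Hsph1, Hspa8, Chordc1, Hsf1 and Hspb1.

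The 4 mitochondrial chaperones did not pass edgeR's test with all 6 libraries. Without replicate 3 of both groups, Dnaja3 (-0.52, adjusted p = 0.00362, edgeR) and Hspd1 (-0.30, adjusted p = 0.0294, edgeR) were called lower. Hspd1 (HSP60) and Hspe1 (HSP10) encode the chamber and lid of the mitochondrial chaperonin and share 1 promoter region. Hspe1 had 77.7, 75.3 and 75.1 CPM in sgElovl1 and 72.8, 54.2 and 64.2 CPM in sgNT, with no overlap and a log2 fold change of 0.25 (adjusted p = 0.187, edgeR). Hspd1 had 304, 332 and 334 CPM in sgElovl1 and 391, 390 and 304 CPM in sgNT, and -0.16 (adjusted p = 0.410, edgeR). The log2 fold changes of this pair therefore had opposite signs, and the difference between them was not tested. Annotated pseudogenes of Hspd1 held little, with at most 1.20 CPM for Hspd1-ps3 in any library. Hspa9 (mortalin), the matrix HSP70, had 203 ± 8.54 against 218 ± 20.2 CPM. Dnaja3, its J-domain partner, had 58.2, 59.6 and 71.0 CPM against 79.3, 88.7 and 71.9 CPM, and -0.35 (adjusted p = 0.0878, edgeR). Dnaja3 overlaps Coro7 on the opposite strand.

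The heat shock factors differed from each other. Hsf2 (chr10:57486385-57513135, plus strand), a factor that can pair with HSF1 and is active in development, rose from a very low level. It had 2.66, 2.44 and 1.97 CPM in sgElovl1 and 0.639, 0.546 and 0.497 CPM in sgNT, from 69, 67 and 43 counts against 15, 14 and 12 counts. The log2 fold change was 2.06 ± 0.37 (SE), or 4.18-fold (adjusted p = 0.00635, edgeR's quasi-likelihood test), and it exceeded that of every other member in size. The call was lost only without sgElovl1 replicate 1 or 2 among the 15 alternatives, with a highest adjusted p of 0.060 (edgeR). The mean transcript length that RSEM gave Hsf2 also differed, with 2572, 2448 and 2900 bases in sgElovl1 and 1803, 2098 and 2387 bases in sgNT. Even in sgElovl1, Hsf2 was the lowest member, with 1.07 ± 0.268 TPM against 0.320 ± 0.100 TPM in sgNT. More genes held a count in each sgElovl1 library (17313 to 18688) than in any sgNT library (15618 to 17040). Without the filter on low counts, the median log2 fold change over all genes was 0.12, against -0.004 with it. The part of this difference in the Hsf2 change was not tested.

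Hsf1, the main regulator of the heat shock response, had 64.8, 68.4 and 67.5 CPM in sgElovl1 and 71.5, 75.7 and 43.8 CPM in sgNT. Apart from the third sgNT library, its libraries lay between 64.8 and 75.7 CPM, with sgNT above sgElovl1. The log2 fold change was 0.07 with a 95% interval from -0.32 to 0.47 (adjusted p = 0.817, edgeR). Hspb1 (HSP27), the listed small heat shock protein, had 1.77, 1.82 and 2.698 CPM in sgElovl1 and 2.22, 1.25 and 4.55 CPM in sgNT. The third library of each group was its highest, as it was for the tumour epithelium markers.

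Per length, the members ranged in sgNT from 2341 TPM for Hspa8 to 0.320 TPM for Hsf2, with a median of 138 TPM. Hspa8 was followed by Hsp90ab1 (736 TPM), Dnaja1 (546 TPM), Cct5 (424 TPM) and Bag1 (406 TPM). Among the 33 neighbouring pairs in this order, 7 did not overlap between their sgNT libraries. Hspa8 and Hsp90ab1, Hsp90ab1 and Dnaja1, and Bag1 and Cct3 were such pairs, whereas Dnaja1 overlapped Cct5, and Cct5 overlapped Bag1. Hspa1b and Hspa1a stood at 34.8 and 26.1 TPM in sgNT and at 51.8 and 35.2 TPM in sgElovl1, far under the constitutive Hspa8. In sgElovl1 the order began with Hspa8, Hsp90ab1, Dnaja1 and Cct5 too, and 11 of the 33 neighbouring pairs did not overlap.

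**Figure D5:**
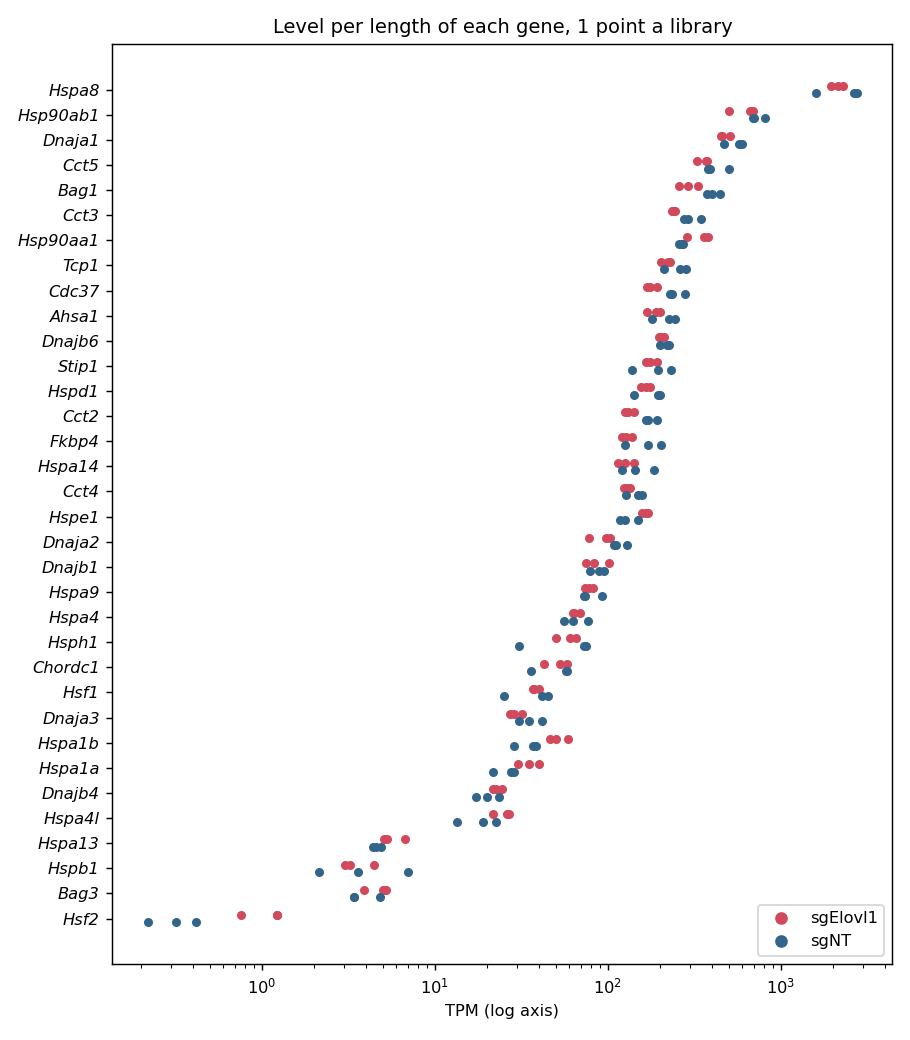
Level per length of each member in TPM (x axis, log scale), 1 point for each sgElovl1 and sgNT library, ordered by the sgNT mean. Hspa8 stands at the top with a sgNT mean of 2341 TPM and Hsf2 at the bottom with 0.320 TPM.

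Further genes of the same systems, which are not among the 34, had a median of the same sign as the members. Over 5 lists of further chaperones and their partners, 70 genes passed the filter, 1 of the 70 rose and 7 fell (against 8.64% and 5.13% of all tested genes), with a median log2 fold change of -0.16. Of 21 further HSP70 partners, 4 fell and 0 rose by edgeR. These were the J-domain genes Dnajc2, which acts at the ribosome, Dnajc8, which is tied to splicing, and Dnajc21, which acts in ribosome assembly, and the exchange factor Bag5, with log2 fold changes between -0.46 and -0.39. Of 12 remaining TRiC and prefoldin genes, Pfdn6 (-0.45) and Pdrg1 (-0.47) fell, and 7 of the 12 were lower in sgElovl1 with no overlap, against 17.7% of all tested genes. Of 14 further HSP90 co-chaperones, Pih1d1 fell (-0.38) and Tsc1 rose (0.80), the latter better known as an inhibitor of mTORC1. With the replicate block, Bag5, Dnajc2, Pih1d1 and Pdrg1 no longer passed, and in TPM 0 of these 7 lower calls passed (limma). None of 13 further mitochondrial chaperones and proteases, nor of 10 further heat shock factors and small heat shock proteins, passed edgeR's test.

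Lists outside the cytosolic system gave other values. Of 20 chaperones and stress response genes of the endoplasmic reticulum, Canx (calnexin) rose (0.48) and 0 fell. These were 5.0% higher and 0% lower, against 8.64% and 5.13% of all tested genes, and the list median was -0.06. Canx no longer passed with the offset for gene length. Of 16 genes known to respond early and to tissue dissociation, 4 rose (25.0%, against 8.64% of all tested genes) and 0 fell. Their median log2 fold change was 0.32. Jun had 53.2, 46.2 and 43.2 CPM in sgElovl1 and 27.9, 26.4 and 35.4 CPM in sgNT. The others were Junb (0.84), Zfp36 (0.56) and Btg2 (0.64). Zfp36 no longer passed with the replicate block or the offset for gene length, and Junb no longer passed in TPM (limma). These 4 genes moved in the same direction as Hspa1b, but the list was not uniform. Of its 16 genes, 12 were not called, and 3 had a negative log2 fold change, down to -0.27, against 13 with a positive one. The part of these genes in the Hspa1b change was not tested. Messages encoded in mitochondria rose for 11 of the 12 tested, with log2 fold changes between 1.63 and 3.23 over the 12. Their sums were 14290, 12140 and 9521 CPM in sgElovl1 and 4534, 2203 and 2343 CPM in sgNT, while the nuclear-encoded mitochondrial chaperones above did not pass.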

How the data were processed

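RNA of sorted OT-I cells was extracted with TRIzol, pre-amplified by a SMARTer protocol and sequenced as a strand-specific mRNA library. Per the labels and the study's methods, the authors mapped reads to mm10 with STAR 2.7.7a, estimated expected counts and TPM per gene with RSEM 1.3.1, and used DESeq2 1.36.0. The annotation release and the strand setting are not given in the sources used here. Both deposited units were used, the expected counts rounded to whole numbers. Gene lengths deposited beside them are those of the authors' RSEM runs. Gene identifiers were matched to GENCODE M21, where 55144 of 55471 had a symbol. Groups came from the sample titles, and p-values measure the spread between these 6 samples, of which 2 pool tumours although the labels describe separate mice.

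Genes were filtered by filterByExpr, scaled by TMM and tested by edgeR's quasi-likelihood method (edgeR 4.0.16, robust fit, R 4.3.3), with Benjamini-Hochberg adjustment over 12546 genes and a threshold of 0.05. Standard errors are the log2 fold change divided by the root of F, and intervals cover 95%. CPM is per 1e+06 counts. Deviations in the plot by library are of log2(CPM + 0.5), and TPM was tested as log2(TPM + 1) with limma 3.58.1, on which scale fold changes of low genes are understated. Alternatives were DESeq2 1.42.0, limma-voom, DESeq2 size factors, no filter, TPM, the replicate number as a block, each library left out, replicate 3 of both groups left out, a lowess offset for gene length (span 0.3), and copies added together. The scripts were tested on simulated data. Deviations from group means correlated at 0.212, 0.245 and 0.405 between libraries of the same replicate number. They also correlated at 0.107 (sgElovl1 replicate 2 with sgNT replicate 1) and 0.169 (sgElovl1 replicate 1 with sgNT replicate 2). Pairs of replicate 3 with another number lay between -0.294 and -0.233. These values set replicate 3 apart but hardly tell a pairing of replicates 1 and 2. A pairing by number entered only the fit with a replicate block, not the main test. The labels do not say what the numbers mark. The members, lists and alternatives were chosen with earlier results of these data known. The 34 members, Elovl1, the called genes of the other lists (3 by p where more than 5) and the 3 leading genes of each marker list could be named. A description of protein features was not made, since no protein table was used here. A further sum of copies is not reported here.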

Additional observations from a re-analysis of the deposited data

How the results depend on the processing

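Among 34 members and 15 alternatives, 22 members kept the sign of their fold change in every alternative, and the sign changed in 24 of 510 values, none of them past the threshold. With the replicate block, 2 members were called higher and 2 lower, Cct3 being lost, 3 genes of the other lists were called lower in place of 7, and the block changed no other call of a member. DESeq2 called 1050 genes and 8 members lower, and 12 genes of the other lists. TPM tested with limma called 162 genes lower, Hsf2 higher and Cdc37 lower as its 1 member in each direction, and 0 genes of the other lists lower. The length offset called 721 genes higher, 0 members lower and 4 genes of the other lists lower. With replicate 3 of both groups left out, 1947 genes were higher and 2039 lower, 17 members and 29 genes of the other lists were lower, and the median member log2 fold change was -0.27. Leaving out each library in turn called 279 to 1414 genes higher and 42 to 1304 lower, 0 to 2 members higher and 0 to 6 lower, and 3 to 17 genes of the other lists higher and 0 to 20 lower, with a median member log2 fold change from -0.26 to -0.092. Without sgElovl1 replicate 1 or 2, 0 members were called by edgeR. Over genes shared with the main result, the median fold change shifted by between -0.011 (DESeq2) and 0.063 (TPM) on the log2 scale. The summed log2 ratio of the mitochondrial chaperones was 0.041 in TPM, and the longer heat shock element was in 18.5% of members.

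Signs changed as follows. Leaving out 1 library gave log2 fold changes from -0.31 to 0.16 for Hsph1, -0.15 to 0.005 for Hsp90aa1, -0.11 to 0.21 for Chordc1, -0.13 to 0.23 for Hsf1, -0.68 to 0.28 for Hspb1, -0.24 to 0.02 for Dnajb1, -0.02 to 0.29 for Dnajb4 and -0.27 to 0.01 for Stip1. Hsph1 also had 0.034 (limma-voom), 0.072 (TPM) and 0.026 (replicate block). With the length offset, Hsp90aa1 had 0.022, Chordc1 -0.05, Hspa8 0.004, Hspa13 -0.048 and Dnajb6 0.00. In TPM, Hsp90aa1 had 0.35 and Hspa4 0.013. With replicate 3 of both groups left out, Chordc1 had -0.25, Hsf1 -0.15 and Hspb1 0.055. The causes were not tested. The sums of Hspa1a with Hspa1b and of members with their pseudogenes were made in 1 fit, a choice made after seeing the data. At this depth Hsf2 rests on 12 to 69 counts a library.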

Other observations

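Hsp90aa1 differed between units. Its estimated mean transcript length, which RSEM derives from the mix of isoforms, was 1626, 1703 and 1671 bases in the sgElovl1 libraries and 2062, 2336 and 1852 bases in the sgNT libraries, with no overlap. Its level was 450 CPM in sgElovl1 against 480 CPM in sgNT, but 343 ± 48.3 TPM against 267 ± 8.25 TPM (SD, n = 3). The lowest sgElovl1 library, at 289 TPM, was above the highest sgNT library, at 274 TPM. The direction thus turned between the count and the level per length. The log2 fold change in TPM was 0.35 (adjusted p = 0.119, limma). The other HSP90 gene, Hsp90ab1, had mean lengths between 2394 and 2454 bases in the 6 libraries.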
